A study of Mus musculus with 8 samples.

Results

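Lyz1 and Lyz2, the pair of lysozyme genes of the mouse, were followed on arrays of whole lung RNA in Scgb3a2-transgenic mice and their wild-type controls. They are 2 of the 21145 genes named on the array. Their members are all probes whose annotated symbol is Lyz1 or Lyz2, and the pair was chosen because the Lyz1 probe had the largest fall in transgenic lungs among the probes ranked for that choice, which had passed a limit of fold and of unadjusted p and did not overlap between genotypes. The next below Lyz1 in that ranking were Cyp2a4 at -1.19 and Fabp4 at -1.14 on the log2 scale, against -1.21 for Lyz1, and among all 32653 tested probes Lyz1 ranked 3 from the lowest and the Lyz2 probes 12 and 27. Every difference between genotypes given below for a lysozyme probe is therefore a description of selected genes and carries no test. A total of 3 probes carried these symbols, 1 for Lyz1 (A_52_P582059) and 2 for Lyz2 (A_52_P238027 and A_51_P321150), and all 3 passed the filter on dim probes.

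The 4 wild-type and the 4 Scgb3a2-transgenic mice were labeled as C57BL/6, all males of 8 to 10 weeks and all without treatment. The transgenic mice carried mouse Scgb3a2 coding sequence behind the human SP-C promoter, which is active in alveolar type II cells. The construct had been injected into C57BL/6NCr eggs and the line descended from a single founder, so an effect of the place of insertion cannot be told apart from an effect of Scgb3a2. Each mouse was hybridized in Cy5 against pooled whole mouse lung RNA in Cy3 on a 2-color array, and no array had the dyes exchanged. The 4 slides held 1 wild-type and 1 transgenic array each and were scanned on 2 days, slides 1 and 2 on day 1 and slides 3 and 4 on day 2. Values are log2 ratios of lung over pool, so that 0 is the level of the pool and values below 0 lie under it.

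Lysozyme is a secreted enzyme of innate immunity that cleaves the sugar backbone of bacterial peptidoglycan. In the mouse the gene is duplicated. Lyz2 encodes lysozyme M of macrophages, monocytes and neutrophils and is also made by alveolar type II cells, the surfactant-producing epithelium of the air sacs, while Lyz1 encodes lysozyme P, known above all from the Paneth cells of the small intestine. In whole lung a change of transcript level can come from fewer cells of a type or from less RNA per cell, which cannot be told apart.

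Both genes lie on chromosome 10 on the same strand, with 0 annotated genes between them. The bases just before their transcription starts are shown as a description. The probe signals of both genes varied together from lung to lung, and a relation of this to the bases was not tested. They come from RefSeq on the GRCm38.p6 assembly, cover chr10:117292869-117293118 for Lyz1 and chr10:117282273-117282522 for Lyz2, both on the minus strand, and end at the base before the start. Capitals mark matches to AGGAA, the core bound by ETS factors such as PU.1, in either direction.
Lyz1: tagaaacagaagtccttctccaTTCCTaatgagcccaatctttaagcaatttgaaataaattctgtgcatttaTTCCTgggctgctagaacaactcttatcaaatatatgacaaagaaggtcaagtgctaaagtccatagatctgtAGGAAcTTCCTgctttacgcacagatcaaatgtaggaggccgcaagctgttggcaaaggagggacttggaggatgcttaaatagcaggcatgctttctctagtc
Lyz2: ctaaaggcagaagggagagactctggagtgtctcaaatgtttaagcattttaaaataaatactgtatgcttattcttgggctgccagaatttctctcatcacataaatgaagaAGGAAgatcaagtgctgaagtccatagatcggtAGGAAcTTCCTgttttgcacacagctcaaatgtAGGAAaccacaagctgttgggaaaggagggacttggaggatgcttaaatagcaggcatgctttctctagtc
The windows of 250 bases were identical at 200 of 252 aligned columns (79.4%). The last 50 bases before the start were the same in both genes. Without gaps, 115 of the nearest 125 bases matched, against 37 of the farthest 125. Each window held 4 matches to the ETS core, a facing pair among them. At least 1 match was present in 60.3% of all 32851 mouse promoter windows of this length, and 9.02% held 3 or more. A TATA-like element with the letters TTAAATA began 28 bases before the start of either gene, and 4.18% of all windows held this motif on either strand. The 2 motifs did not overlap in these windows. The matches describe the letters only, and no binding was measured.

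The Lyz1 probe lay at percentile 99.0 of intensity and was well above background on all 8 arrays. In wild-type lungs its log2 ratio was 0.55 in replicate 1, 0.35 in replicate 2, 1.33 in replicate 3 and -0.07 in replicate 4. In transgenic lungs it was -0.89 in replicate 1 and -0.44 in replicate 4. The spots of transgenic replicates 2 and 3 were flagged as non-uniform and were left out. The unflagged values of the genotypes did not overlap, which the choice of the gene had required. With the transgenic group lower, the genotypes did not overlap for 0.903% of all tested probes. That share is not on like terms, since Lyz1 had 4 against 2 values and most tested probes had a value on every array. The wild-type mean was 0.54 ± 0.59 (SD, n = 4) and the transgenic mean -0.67 ± 0.32 (SD, n = 2), a difference of -1.21, or a 2.31-fold lower level.

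The flagged spots decided how large this difference was. Read in spite of the flag, transgenic replicates 2 and 3 were at 0.24 and 0.25, above wild-type replicate 4, and the genotypes overlapped. The transgenic mean was then -0.22 ± 0.56 (SD, n = 4) and the difference -0.73. The authors' matrix, which holds a value for these spots, also gave a difference of -0.73. Both unflagged transgenic arrays were scanned on day 1, where the difference was -1.61. On day 2 the mean of the flagged transgenic spots lay 0.13 above the mean of the wild-type arrays. Both spots were below wild-type replicate 2 (0.30 with flagged spots kept). Without wild-type replicate 3, the array with the most Lyz1, the difference over unflagged spots was -0.94.

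Lyz2 was measured by both of its probes on all arrays with no flagged spot, at percentile 99.9 of intensity. The brighter probe, A_52_P238027, stood at 0.48, 1.08, 1.77 and 0.27 in wild-type replicates 1 to 4. In transgenic replicates 1 to 4 it stood at -0.46, 0.45, 0.50 and 0.07. Wild-type replicate 3 was the highest and transgenic replicate 1 the lowest of the 8 lungs, and the genotypes overlapped, with wild-type replicate 4 below transgenic replicates 2 and 3. The wild-type mean was 0.90 ± 0.67 (SD, n = 4), the transgenic mean 0.14 ± 0.44 (SD, n = 4), and the difference was -0.76, a 1.69-fold lower level. It was -0.47 without wild-type replicate 3 and also -0.47 with array weights.

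The second Lyz2 probe, A_51_P321150, gave the same order of extremes over a wider range. Its values were 0.00, 0.68, 1.48 and -0.36 in wild-type replicates 1 to 4. They were -1.64, 0.20, 0.15 and -0.75 in transgenic replicates 1 to 4. The genotypes overlapped here too. The wild-type mean was 0.45 ± 0.81 (SD, n = 4) and the transgenic mean -0.51 ± 0.87 (SD, n = 4), a difference of -0.96, a 1.95-fold lower level. It was -0.58 without transgenic replicate 1 and -0.62 without wild-type replicate 3.

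**Figure D1:**
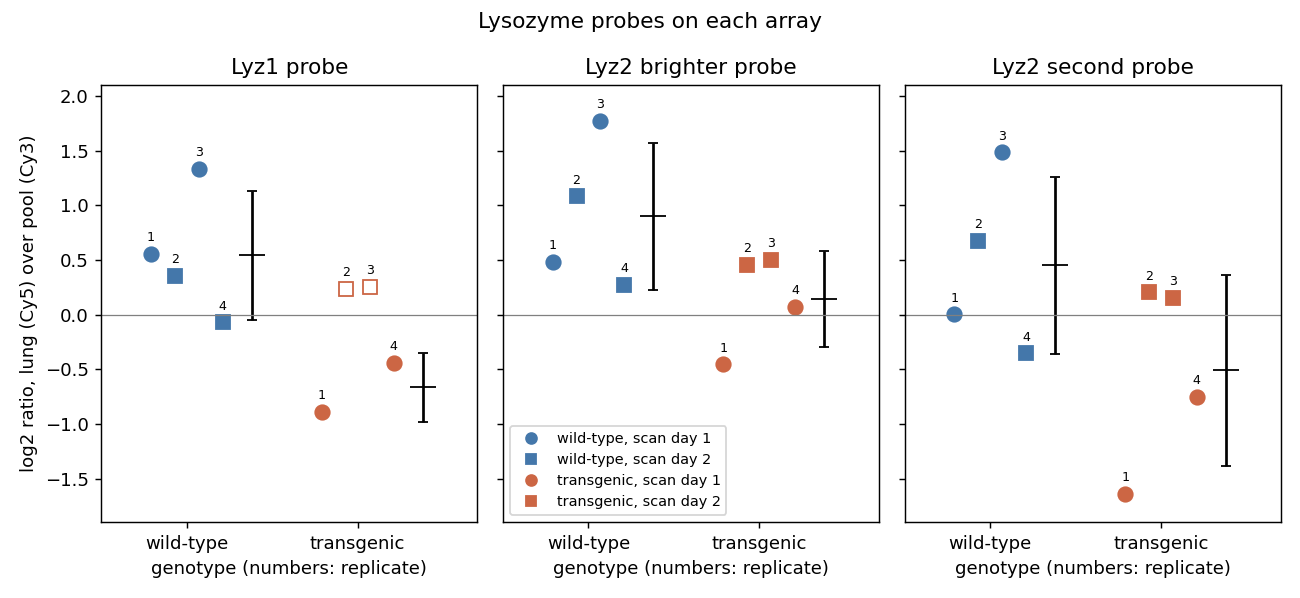
Log2 ratio of lung over pool (y axis) of the 3 lysozyme probes in each wild-type and transgenic mouse, numbered by replicate, with circles for scan day 1 and squares for scan day 2. Open squares are flagged spots that the means leave out, and bars give the mean and SD of unflagged arrays. Wild-type replicate 3 is the highest and transgenic replicate 1 the lowest array for every probe.

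Since each slide held a mouse of either genotype, the difference could be taken within slides. For the brighter Lyz2 probe it was -1.70 on slide 1, -0.94 on slide 2, -0.63 on slide 3 and 0.23 on slide 4. For the second Lyz2 probe it was -2.24, -1.64, -0.47 and 0.51 on the same slides. The unflagged spots of Lyz1 gave -1.77 on slide 1 and -1.45 on slide 2. Thus the transgenic mouse was lower on slides 1, 2 and 3 and higher on slide 4 for both Lyz2 probes. By scan day the brighter Lyz2 probe differed by -1.32 on day 1 and by -0.20 on day 2, and the second by -1.94 on day 1 and 0.02 on day 2. Day and slide stand for different mice as well as for different hybridizations, which cannot be told apart.

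**Figure D2:**
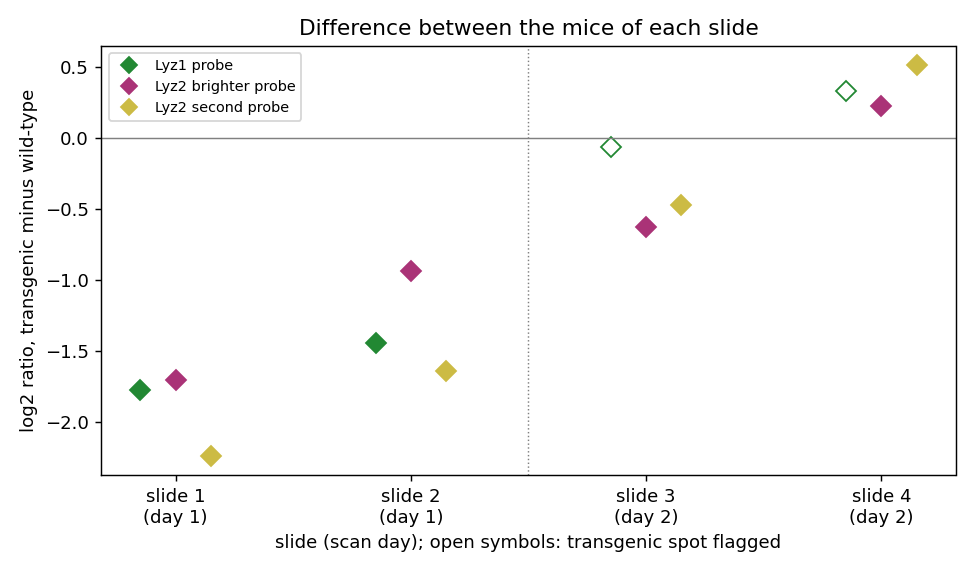
Difference of log2 ratios between the transgenic and the wild-type mouse of each slide (y axis) for the 3 lysozyme probes, by slide and scan day (x axis), with open symbols where the transgenic spot was flagged. The day 1 slides range from -0.94 to -2.24 and the day 2 slides from -0.63 to 0.51.

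The channels were then read apart, each as quantile-normalized log2 intensity. In the sample channel the Lyz1 probe ranged over 2.04 between the 8 arrays, flagged spots included, against 0.47 in the pool channel. For the second Lyz2 probe these ranges were 1.86 and 0.94. For the brighter Lyz2 probe they were 1.02 and 0.99, so that the pool signal varied as much as the lung signal. The median range of the 824 probes at or above percentile 98 of intensity was 0.62 in the sample channel and 0.42 in the pool channel. The pool signal of the brighter Lyz2 probe was low where its lung signal was high (r = -0.76 over 8 arrays), while over these 824 probes the median r was 0.67. Of its difference between genotypes, -0.30 was found in the sample channel, and the pool channel was 0.47 higher on transgenic arrays. For the second probe the sample channel differed by -0.62 and the pool channel by 0.25, and for Lyz1 by -0.58 and 0.14. The part of the pool signal in the ratios of Lyz2 was not tested.

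**Figure D3:**
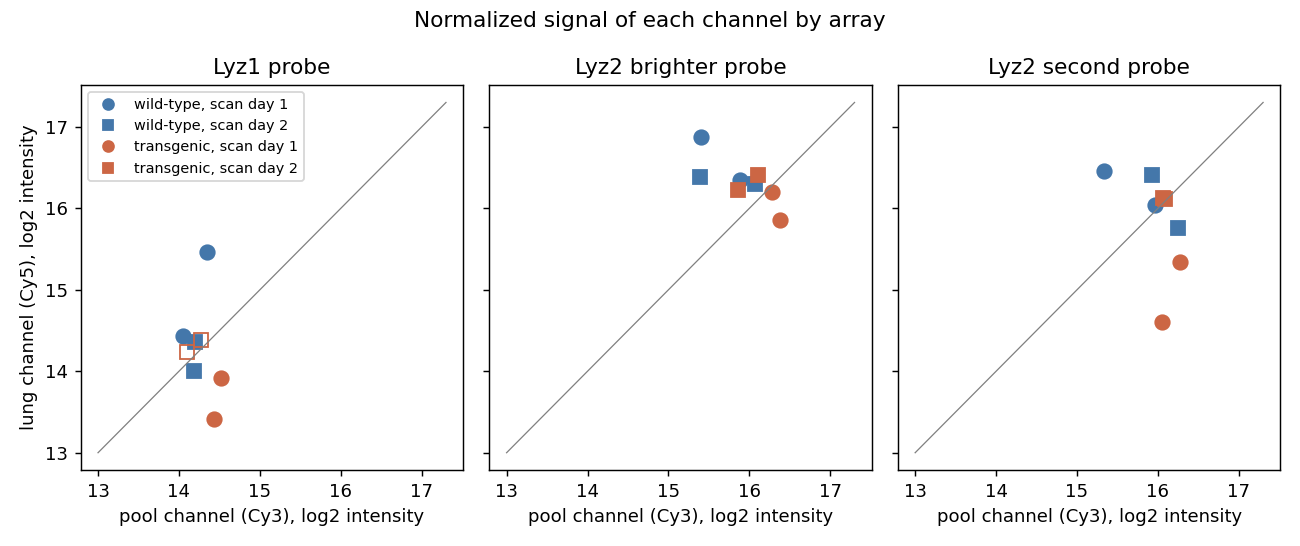
Normalized log2 intensity of the lung channel (y axis) against the pool channel (x axis) for the 3 lysozyme probes, a symbol per array, open for flagged spots, with the line of equal signal. The brighter Lyz2 probe spreads over 0.99 in the pool channel and 1.02 in the lung channel, and Lyz1 over 0.47 and 2.04.

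The Lyz1 and Lyz2 probes varied together from lung to lung. Over the 6 arrays with an unflagged Lyz1 spot, Lyz1 correlated with the brighter Lyz2 probe at r = 0.94 and with the second at r = 0.96. Both Lyz2 probes correlated at r = 0.98 over 8 arrays. These probes share arrays and pool, and how much sequence they share, and so how far either gene could bind the other's probe, was not tested. The spread within genotypes was wide. Pooled over both genotypes, the SD was 0.53 for Lyz1, 0.57 for the brighter and 0.84 for the second Lyz2 probe, against a median of 0.18 over all 32653 tested probes. These SDs lay at percentiles 99.0, 99.2 and 99.7 of all tested probes, and at percentiles 95.9, 96.1 and 98.6 among 584 tested probes of like brightness.

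A comparison that the choice of the genes did not use sets the lungs of both genotypes against the pool. The brighter Lyz2 probe was higher in the lungs by 0.52 (standard error 0.15, adjusted p = 0.0126 by limma), a 1.43-fold higher level, and lay above the pool on 7 of 8 arrays. The exact two-sided sign-flip permutation p was 0.0469, with 0.00781 the smallest that 8 arrays allow. The second Lyz2 probe disagreed, with a mean of -0.03 (standard error 0.22, adjusted p = 0.921 by limma) and 5 of 8 arrays above the pool. Lyz1 had a mean of -0.06 (standard error 0.16, adjusted p = 0.763 by limma) over 6 arrays, and 0.15 with the flagged spots kept. Calls against the pool were frequent, since 29.5% of all tested probes were higher and 28% lower in the lungs, although the methods describe the pool as equal amounts of RNA from each sample. Dye and pool cannot be told apart in this comparison.

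Scgb3a2, the secreted airway protein of the transgene, was read as a check of the labels. It was higher in transgenic lungs on average but was not called, so the labels are not settled by it. The wild-type lungs had a mean log2 ratio of -0.09 ± 0.51 (SD, n = 4) and the transgenic lungs one of 0.79 ± 0.33 (SD, n = 4), a difference of 0.88 (standard error 0.24). The adjusted p was 1 by limma, and the exact permutation p 0.0571, where 0.0286 is the smallest possible. The probes of whole lung cell types were present, with Sftpc of type II cells, Scgb1a1 of club cells, Ager of type I cells, Cdh5 of endothelium, Foxj1 of ciliated cells and Marco of alveolar macrophages all well above background. Between genotypes these 6 differed by -0.60 (Sftpc) to 0.26 (Cdh5), while Cldn18 was flagged too often to be tested. Across all 32653 tested probes 0 (0%) had an adjusted p under 0.05 between genotypes by limma, and 684 (2.09%) had an unadjusted p under 0.05, of which 318 (0.974% of all) were lower in transgenic lungs.

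Because Lyz2 is a macrophage gene, the genes of alveolar macrophages were set beside it. Of 18 genes on the list 15 were tested, 4 were higher and 11 lower in transgenic lungs, and 0 were called between genotypes at either threshold. Their median difference was -0.04, against 0.00 over all tested probes. Marco, a scavenger receptor for bacteria, had the highest difference of 0.13 (-0.04 without transgenic replicate 1), and Olr1, a receptor for oxidized lipoprotein, differed by 0.08. The lowest were Msr1, another scavenger receptor, at -0.20, and Krt79, a keratin, at -0.19. The mean log2 ratio of the 14 genes with a value on every array ranged from -0.84 to -0.51 in wild-type and from -0.89 to -0.38 in transgenic lungs. Against the pool 10 of the 15 were lower and 0 higher, beside 28% and 29.5% of all tested probes, with Cd68 at -2.04 and Msr1 at -1.56.

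Monocyte and interstitial macrophage genes had a median difference of 0.06, with 0 of 12 called at either threshold. Cx3cr1, the fractalkine receptor, differed by 0.34 and Ly6c2, of inflammatory monocytes, by 0.23, while Cd14, a lipopolysaccharide co-receptor, differed by -0.16 and C1qb, a complement subunit, by -0.13. Against the pool 10 of the 12 were lower, beside 28% of all tested probes. Lysosomal genes, whose products work in the compartment where macrophages digest bacteria, had a median difference of -0.03 with 14 of 16 tested. Gusb was at 0.13 and Lamp1 at 0.00, the cathepsin Ctss at -0.21 and Lamp2 at -0.19, and 0 passed either threshold.

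Neutrophil granule genes, the other myeloid store of lysozyme, had a median difference of 0.05 over 14 tested genes, and 0 passed either threshold. The spread between them was wide, and without transgenic replicate 1 the median was -0.17. The calprotectin genes S100a9 and S100a8 differed by 1.04 (standard error 0.97) and 0.74 (standard error 0.83), but without transgenic replicate 1 by 0.14 and -0.03. Ltf, the lactoferrin of granules and glands, differed by -1.04 (standard error 0.59), and Lcn2, which binds bacterial siderophores, by -0.21.

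Genes of alveolar type II cells stood lower in transgenic lungs as a group, without a call. Of 16 genes 15 were tested, 14 were lower and 1 (Cxcl15, a chemokine of lung epithelium) higher at 0.12, while Abca3, the lipid transporter of lamellar bodies, was at -0.01. The median difference was -0.47, -0.29 without transgenic replicate 1 and -0.25 without wild-type replicate 3. None passed the adjusted threshold by limma, while 4 had an unadjusted p under 0.05, a share to be read against the background of 2.09%. These 4 were the surfactant collectins Sftpa1 at -0.75 (standard error 0.29, unadjusted p = 0.0238 by limma) and Sftpd at -0.47 (standard error 0.16, unadjusted p = 0.0133 by limma). The others were Fasn, the fatty acid synthase, at -0.52 (standard error 0.17, unadjusted p = 0.0184 by limma) and the chitinase-like Chil1 at -0.34 (standard error 0.15, unadjusted p = 0.0485 by limma). Their adjusted p was 1. Like the lysozymes the list had its lower values on day 1, with a median of -0.67, against a median of 0.11 on day 2. The surfactant genes Sftpc and Sftpb differed by -1.92 and -1.42 on day 1 and by 0.40 and -0.01 on day 2. Fasn and the transcription factor Cebpa gave no day 2 difference because of flagged spots.

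The relation of Lyz2 to the cell types was read from lung to lung. Across the 8 arrays the brighter Lyz2 probe correlated with the mean of 7 type II cell genes measured on every array at r = 0.97 (exact permutation p = 0.000298, adjusted p = 0.00119 over the family of 4 relations) and Spearman's rho = 0.88 (exact p = 0.00724, adjusted p = 0.0290). These values, like those of Lyz2 with the other lists below, include the genotype difference of the selected pair. Their p-values are therefore a description. Without wild-type replicate 3 and transgenic replicate 1, the arrays farthest from the median, r was 0.86. With the genotype means taken out r was 0.98 (exact p = 0.00347 by permutation within genotypes, adjusted p = 0.0139, added after these results were seen), and with the scan day means taken out 0.98. A day alone held 4 arrays, under the 6 set for a correlation. With flagged spots kept r was 0.97. In the sample channel alone, where the pool does not enter, it was 0.84 and missed the threshold (exact permutation p = 0.0501, adjusted).

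With the mean of 14 alveolar macrophage genes the correlation of Lyz2 was r = 0.44 (exact permutation p = 0.274, adjusted p = 0.274) and rho = 0.57 (exact p = 0.151, adjusted p = 0.202), and r was 0.56 without the farthest arrays, transgenic replicates 2 and 4. For Lyz1, over 6 arrays, r was 0.95 (rho = 0.89) with the type II cell genes and 0.66 (rho = 0.60) with the macrophage genes, values that include the genotype difference on which the gene was selected and so are given as a description. With the genotype means taken out they were 0.95 (exact p = 0.0417 by permutation within genotypes, adjusted p = 0.0833, 0.0208 being the smallest p possible) and 0.30 (exact p = 0.667, adjusted p = 0.667). Whether the correlations with both lists differ was not tested.

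**Figure D4:**
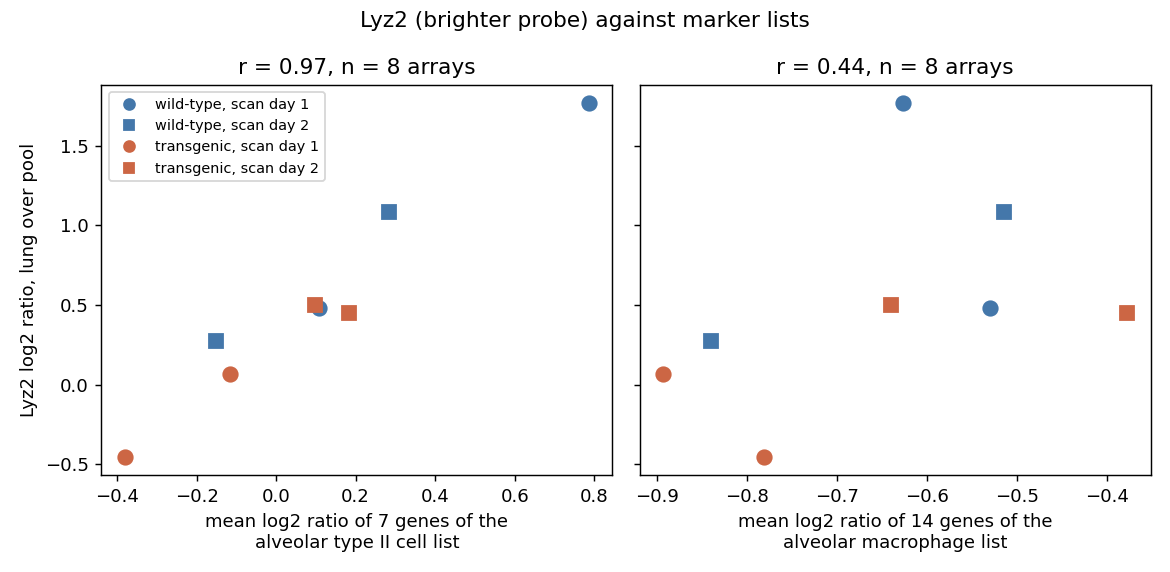
Log2 ratio of the brighter Lyz2 probe (y axis) against the mean log2 ratio of 7 type II cell genes and of 14 alveolar macrophage genes (x axes), a symbol per array by genotype and scan day. The arrays lie along a line for the type II cell genes (r = 0.97) and scatter for the macrophage genes (r = 0.44).

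Gene by gene, 12 type II cell genes had values on at least 6 arrays, and 8 of them correlated with Lyz2 above 0.8. So did 1.96% of all 29500 other probes with a value on every array and 7.56% of the 357 bright ones among these. The shares are not on like terms, since Sftpb, Sftpc and Lpcat1 had 7 arrays and Slc34a2 had 6. Sftpa1, Napsa, Etv5 and Il33 were above 0.8 over all 8 arrays, while Sftpd, Abca3 and Cxcl15 were below it. Sftpb reached 0.99, Il33, an alarmin cytokine, 0.97, Napsa, the aspartic protease that processes surfactant protein B, 0.92 and Sftpa1 0.91. The exceptions were Sftpd at 0.78, Chil1 at 0.58, Cxcl15 at 0.43 and Abca3 at -0.03. None of the 15 alveolar macrophage genes was above 0.8, and they ran from -0.37 (Olr1) to 0.59 (Mrc1, the mannose receptor). The median r was -0.05 over all probes and 0.31 over the bright ones. All 12 lists were then compared, added after these results were seen. Their p-values are a description, since the genotype difference of the selected pair is included. Under an adjusted p of 0.05 were the type II cell list (adjusted p = 0.00357 by the exact permutation test) and the cardiac muscle list. The cardiac list had r = 0.89 with the mean of 3 genes (adjusted p = 0.0269 by the exact permutation test). The cardiac relation had rho = 0.93, against 0.88 for the type II cell list. Its r was 0.84 with the genotype means and 0.89 with the scan day means taken out. Without the 2 farthest arrays r was 0.58 for the cardiac and 0.86 for the type II cell list. The lymphocyte list ran the other way at r = -0.83 (adjusted p = 0.0561 by the exact permutation test), and at -0.33 without its 2 farthest arrays.

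The single genes most like Lyz2 in their pattern were Vapa (r = 0.99 over 6 arrays), a membrane protein of the endoplasmic reticulum, Lamp2 (r = 0.99 over 6 arrays), of the lysosomal membrane, the homeobox gene Irx1 (r = 0.99 over 8 arrays), Sftpb (r = 0.99 over 7 arrays) and the chaperone partner Bag3 (r = 0.98 over 8 arrays), out of 28208 probes compared. Those most like Lyz1, all over 6 arrays and out of 26503 probes, were the centriolar gene Ccp110 (r = 1.00), the matricellular Ccn3 (r = 1.00), the sorting receptor Sort1 (r = 0.99), the sarcomere gene Ttn (r = 0.99) and Ank, a pyrophosphate transporter (r = 0.99). Sort1 differed by -0.05 between genotypes and the other 9 by -0.17 to -0.57. Over so few arrays such values are a description of the most similar patterns, and no gene was among the first 5 for both lysozymes.

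Genes whose products are secreted with lysozyme by airway and gland epithelium had a median difference of -0.21, with 9 of 13 tested genes lower. Leaving out each mouse in turn gave medians from -0.47 (without transgenic replicate 1) to -0.03 (without transgenic replicate 4). None was called, and 2 had an unadjusted p under 0.05. Bpifa1, an airway protein that acts on bacteria and surface tension, stood at -1.53 (standard error 0.53, unadjusted p = 0.0138 by limma, adjusted p = 1), with -2.99 on day 1 and -0.07 on day 2, and the other was Sftpd. The highest difference was that of the protease inhibitor Slpi at 0.26, followed by Dmbt1, a mucosal scavenger receptor, at 0.13. Without transgenic replicate 1 they were at -0.10 and -0.01. The mean over the 12 genes with all values had an r of 0.15 with Lyz2. It was 0.63 without the 2 farthest arrays and -0.10 with the genotype means taken out.

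The wider lysozyme family, most of it known from testis or, for Lalba, from milk, gave no call. Of 8 genes 7 were tested, and their differences were -0.13 for Lyzl1, -0.14 for Lyzl4, 0.22 for Lyzl6, -0.14 for Spaca3, 0.03 for Spaca5, -0.06 for Lalba and 0.03 for Lyg1. These probes had intensities between percentiles 24.3 and 67.4. None differed by more than 0.22 in either direction.

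Markers of other tissues that a dissected lung can carry were read on the same arrays. The adipocyte list had a median difference of -0.29, with -0.51 on day 1 and -0.08 on day 2. The hormone Adipoq was at -0.89 (standard error 0.25, unadjusted p = 0.00486 by limma), Cfd at -0.76, Ucp1 at 0.15 and Lep at -0.05. The cardiac muscle list, which covers heart and the muscle sleeve of pulmonary veins, had a median of -0.34, with -0.88 on day 1 and 0.19 on day 2, Myh6 at -0.62 and Myl4 at -0.54 (unadjusted p = 0.0136 and 0.0325 by limma), Actc1 at 0.00 and Tnnt2 at -0.33. The mean of 3 cardiac genes ranged from 0.31 to 0.97 in wild-type and from -0.29 to 0.58 in transgenic lungs. The lymphocyte list had a median of 0.06, with the B cell gene Ms4a1 at 0.63 (unadjusted p = 0.0298 by limma), Cd79b at 0.57, Cd4 at -0.12 and Ncr1 at -0.06, and the erythroid list one of -0.02, with Alas2 at 0.35, Hbb-b1 at 0.13 and Hba-a1 at -0.51. No gene of these lists was called between genotypes at the adjusted threshold by limma. The part of these tissues in the lysozyme values was not tested.

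**Figure D5:**
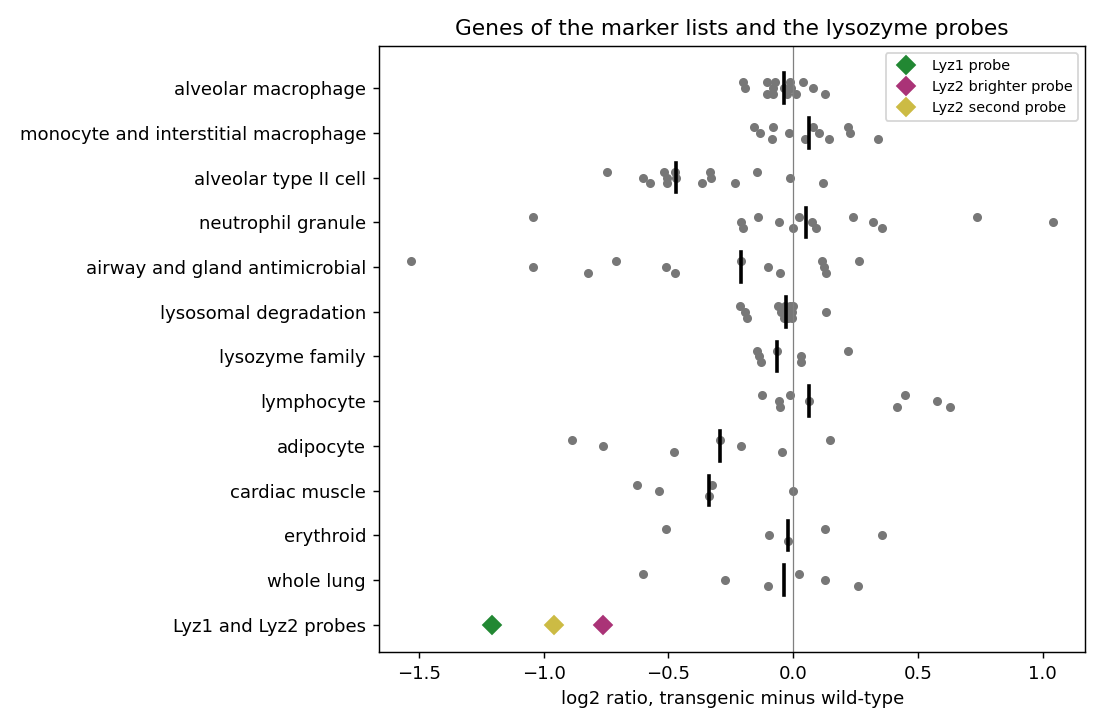
Difference of log2 ratios between transgenic and wild-type lungs (x axis) of each tested gene of 12 marker lists (gray points, black bar at the list median) and of the 3 lysozyme probes (diamonds, selected on this difference). The type II cell list has the lowest median at -0.47 and the alveolar macrophage list lies at -0.04.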

How the data were processed

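Whole lungs of 4 wild-type and 4 Scgb3a2-transgenic mice, grouped by the titles in the labels, were measured on 2-color Agilent arrays. The authors deposited Feature Extraction output (10.10.1.1 in the file headers, 11.0.1.1 in the submitters' notes) with raw and processed intensities, log10 ratios that were not used, and a matrix of log2 ratios, which for 39811 of 39811 single-spot probes lay within 0.001 of the ratio of processed signals. All matrix columns were mapped, with 0 left out.

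Raw medians were background-corrected with normexp (offset 50, fitted on unflagged spots), control and outlier-flagged spots (1.72% to 6.46% per array) were left out, and ratios were normalized by loess (span 0.3). Tested were 32653 of 41174 probes, those well above background in Cy5 on at least 4 of 8 arrays with 2 or more values per genotype. No spot was saturated (0). The test was limma's moderated test, two-sided, with Benjamini-Hochberg adjustment, and single values were tested by exact permutation of arrays. The methods name GeneSpring and a t-test. A gene is given by its brightest probe.

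The members and gene lists were chosen with earlier results of these data known. Named were all member probes, Scgb3a2, the lysozyme family and whole lung lists, per other list the genes past the test or else the 2 highest and 2 lowest, and the 5 most alike genes per member, with 1 gene of the rule not reported here. Genes past the unadjusted threshold, those against the pool and the single correlations were named after their values were seen. Ear2, Siglecf, Bpifb1 and Lyg2 matched no probe, and Car4, Scd1, Ctsd, Npc2, Myl7 and Cldn18 had too few unflagged values. Symbols came from the matrix for 33870 probes and by RefSeq accession for 933. In 18 alternatives the background correction, normalization, channel, flags, filter, variance model, blocks, test, probes or mice were changed. On simulated data for this comparison (29502 probes) the fit found 87% of 100 probes changed 2-fold and 100% of 100 changed 4-fold, with 6 false calls. These shares check the fit only. They are not the power for genes as variable as the lysozymes, with SDs of 0.53 to 0.84 against a median of 0.18. R 4.3.3, limma 3.58.1, Python 3.11.15, Biopython 1.88 and matplotlib 3.10.9 were used.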

Additional observations from a re-analysis of the deposited data

How the results depend on the processing

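The lower lysozyme values of transgenic lungs kept their sign in all alternatives that gave a value for Lyz1 and the brighter Lyz2 probe, but on scan day 2 Lyz1 with flagged spots kept (0.13) and the second Lyz2 probe (0.02) were not lower. Their size depended on flagged spots and on single mice. Without each mouse in turn the Lyz1 difference ran from -1.41 to -0.94 and that of Lyz2 from -0.97 to -0.47. In the sample channel alone Lyz2 differed by -0.29. No value of Lyz1 could be had without transgenic replicate 1, without transgenic replicate 4 or on scan day 2 alone, for lack of unflagged transgenic arrays.

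Lyz2 against the pool (0.52) missed the adjusted threshold with normexp fitted on all spots (0.48), Agilent processed signals (0.39), the authors' matrix (0.39), all probes of the gene averaged (0.25) and scan day 1 alone (0.47, chosen after seeing the data). Lyz1 against the pool turned its sign with flagged spots kept (0.15), the authors' matrix (0.15), the replicate block (0.088) and scan day 1 alone (0.14), ran from -0.19 to 0.040 without each mouse in turn, and passed the threshold with the slide as a block (-0.26, adjusted p = 0.0235 by limma). In the sample channel alone the correlations with the type II cell list were 0.84 for Lyz2 and 0.86 for Lyz1, both short of the threshold. With normexp fitted on all spots the correlation of Lyz2 with the macrophage list was -0.14. Of 15 tested type II cell genes 6 were called higher and 3 lower against the pool, beside 29.5% and 28% of all tested probes. These 9 became 5 with Agilent processed signals and 4 on scan day 1 alone. All probes called were 10710 on scan day 1 alone in place of 18780. The causes were not tested. Mice of the same replicate number deviated together at r of 0.32, 0.25, -0.08 and -0.21, so the numbers do not pair them. Those at 0.32 and 0.25 also shared a slide. Mice that shared a slide had r of 0.30, 0.32, 0.25 and 0.075 on slides 1 to 4, and the main fit did not use the slide. The replicate block left the Lyz2 difference at -0.76 and gave -0.91 for Lyz1. With the slide as a block these were -0.76 and -1.61, and 0 probes were called by genotype. The number of arrays, 8 with 2 lacking an unflagged Lyz1 spot, and the wide spread within genotypes limit the precision.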
